A study of Homo sapiens with 24 samples.

Results

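The comparison reported here is the loss of TNRC6A in HCT116 cells without TNRC6B. It set 3 libraries of TNRC6AB-/- cells, in which TNRC6A and TNRC6B are both knocked out, against 3 libraries of TNRC6B-/- cells. These 6 libraries, chosen by their genotype labels and by the lack of any transfection, are part of 24 in the series. HCT116 is a line grown from a human colon carcinoma. All libraries came from HCT116 cells, both groups lacked TNRC6B, and the TNRC6A knockout was the intended difference. Each genotype was 1 purchased knockout line, the TNRC6A allele being a frameshift and the TNRC6B allele a large deletion. The sources used here do not say from which line the TNRC6AB-/- line was derived. Nothing in the sources used here says whether the 3 libraries of a line came from separate cultures, so the p-values measure the spread between libraries only. A difference between the lines that arose when they were derived and a difference due to TNRC6A cannot be told apart in this design. The other untransfected libraries, 3 of TNRC6A-/- and 3 of wild type cells, gave the matching loss of TNRC6A in cells with TNRC6B. Libraries of TNRC6AB-/- and wild type cells transfected with siGL2, a control duplex, were read as a separate set.

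TNRC6A, TNRC6B and TNRC6C are the human GW182 proteins. Each binds an Argonaute protein that carries a microRNA, through its tryptophan repeats, and recruits the CCR4-NOT and PAN2-PAN3 deadenylases, so that the poly(A) tail of the message is shortened and the message is decapped and degraded. The microRNA finds its message by pairing of its seed, bases 2 to 8, with sites that lie mostly in the 3′ untranslated region (3′UTR). Messages with such sites are the usual targets of this decay.

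The measurements were whole-cell RNA sequencing read counts estimated per transcript and summed per gene. Totals were 28822976 to 36919015 estimated reads in TNRC6AB-/- libraries, and 31052562 to 39509357 in TNRC6B-/- libraries, over 57721 genes. Library 1 of each group stood apart from libraries 2 and 3 in the share of reads on retained-intron transcripts, which was 5.15%, 3.86% and 3.52% in TNRC6AB-/- libraries 1, 2 and 3, against 5.74%, 3.72% and 3.38% in TNRC6B-/- libraries 1, 2 and 3. Mitochondrial genome reads took 6.78 to 7.97% of TNRC6AB-/- reads and 6.97 to 8.50% of TNRC6B-/- reads. Levels are given below as CPM, the counts of a gene per 1e+06 counts of its library after scaling by the trimmed mean of M values, in libraries 1, 2 and 3 in that order. Differences are log2 of TNRC6AB-/- over TNRC6B-/- with standard errors (SE). Adjusted p-values are those of edgeR's quasi-likelihood test with Benjamini-Hochberg adjustment over all 22925 genes tested. A gene is said to rise or fall where that p was below 0.05. In bulk RNA, fewer cells that express a gene and less of its RNA per cell cannot be told apart.

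TNRC6A itself was lower in TNRC6AB-/- cells, where its RNA was not lost. TNRC6A had 56.3, 52.8 and 48.3 CPM in TNRC6AB-/- cells, against 129, 104 and 100.1 in TNRC6B-/- cells (log2 difference −1.08, SE 0.133, edgeR adjusted p = 0.000155), and the groups did not overlap. The knockout is a frameshift, so RNA of the allele can still be read and this value checks the label without measuring protein. A similar remainder was found in TNRC6A-/- cells, which had 70.3 ± 2.47 (SD, n = 3) CPM against 116 ± 14.5 (SD, n = 3) CPM in wild type cells. TNRC6B had 89.4, 103 and 94.98 CPM in TNRC6AB-/- cells, against 133, 121 and 113 in TNRC6B-/- cells, a difference that did not pass the test (log2 difference −0.35, SE 0.129, edgeR adjusted p = 0.0983). As both groups carry the TNRC6B deletion, these are reads of the remaining parts of the gene. The third paralog rose, with 90.8, 108 and 95.2 CPM in TNRC6AB-/- cells, against 74.8, 70.2 and 68.8 in TNRC6B-/- cells (log2 difference 0.46, SE 0.116, edgeR adjusted p = 0.019). That call for TNRC6C was lost without TNRC6AB-/- library 2 and without TNRC6B-/- library 2 or 3, where the edgeR adjusted p reached 0.111.

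**Figure D1:**
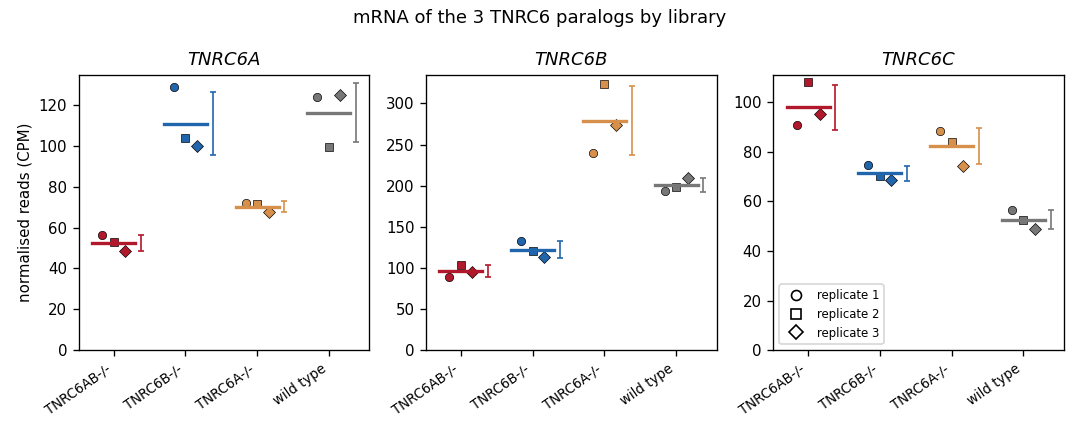
CPM level of the TNRC6 paralogs in every untransfected library, on linear axes, by genotype with TNRC6AB-/- at the left. Points are libraries, bars are means and error bars are SD over 3 libraries; TNRC6A sat between 48.3 and 56.3 CPM in TNRC6AB-/- cells and between 100.1 and 129 CPM in TNRC6B-/- cells, while TNRC6C was higher in TNRC6AB-/- cells.

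Few other genes of the silencing machinery passed the test. Of 24 RNA silencing genes, 4 rose and 1, TNRC6A, fell, beside 6.83% of all tested genes that rose and 5.77% that fell, and the median log2 difference of the 24 was 0.24 against 0.0082 over all tested genes. Without TNRC6AB-/- library 2, or TNRC6B-/- library 2 or 3, the number that rose was 2. DICER1, the nuclease that cuts microRNA precursors, rose, with 151, 166 and 158 CPM in TNRC6AB-/- cells, against 101, 100.2 and 118 in TNRC6B-/- cells (log2 difference 0.57, SE 0.113, edgeR adjusted p = 0.0044), a call lost where counts were scaled by transcript length (edgeR adjusted p = 0.12). ZSWIM8, a ubiquitin ligase receptor that marks Argonaute for decay when a target pairs extensively with its microRNA, also rose. ZSWIM8 had 57.2, 59.96 and 58.99 CPM in TNRC6AB-/- cells, against 37.6, 29.7 and 37.9 in TNRC6B-/- cells (log2 difference 0.74, SE 0.135, edgeR adjusted p = 0.00258). MOV10, an RNA helicase bound to Argonaute, rose by a log2 of 0.43 (SE 0.114, edgeR adjusted p = 0.0232), a call lost with an adjusted p of up to 0.138 without TNRC6AB-/- library 2 or 3 or TNRC6B-/- library 2 or 3. The Argonautes did not pass the test, with log2 differences of 0.086 for AGO1, 0.28 for AGO2, 0.21 for AGO3 and 0.38 for AGO4 and edgeR adjusted p-values of 0.156 or above, nor did DROSHA at −0.33 (edgeR adjusted p = 0.0565). Among 34 genes of deadenylation and decapping, 4 rose and 3 fell. Leaving out TNRC6AB-/- library 1 or 2, TNRC6B-/- library 2 or 3, or TNRC6A-/- library 2, which enters the shared estimate of spread, left 1 that fell. CNOT3, a subunit of the CCR4-NOT deadenylase, fell, with 30.04, 34.1 and 35.4 CPM in TNRC6AB-/- cells, against 56.1, 61.00 and 63.6 in TNRC6B-/- cells (log2 difference −0.86, SE 0.108, edgeR adjusted p = 0.000174). TOB1, an adaptor that brings CCR4-NOT to messages, rose, with 139, 138 and 148 CPM in TNRC6AB-/- cells, against 71.3, 63.96 and 64.3 in TNRC6B-/- cells (log2 difference 1.09, SE 0.160, edgeR adjusted p = 0.000551). DCP2, the decapping enzyme, rose by a log2 of 0.86, and BTG2, another CCR4-NOT adaptor and a p53 target, by 1.40.

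Across all tested genes, 2324 genes (10.1%) passed both the adjusted p and a log2 difference over 0.6, 1226 higher and 1098 lower in TNRC6AB-/- cells. With the adjusted p alone 1565 genes (6.83%) rose and 1322 (5.77%) fell. These are the shares to set beside the list counts below. Among the 2324 genes, 642 were at least 2-fold higher and 568 at least 2-fold lower, and 2177 had groups that did not overlap, beside 25.7% of all tested genes whose groups did not overlap. The count was 1340 without TNRC6AB-/- library 2 and 1389 without TNRC6B-/- library 2. The count was 2855 where library 1 of both groups was left out. In the gene lists that follow, wherever 0 members passed in a direction by edgeR, an unadjusted p under 0.05 gave 0 or 1 member in that direction, DESeq2 gave 0 or 1 and limma-voom 0 to 4, apart from the cell cycle lists.

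The genes furthest higher in TNRC6AB-/- cells included genes for matrix, secreted and surface proteins. COL3A1, the chain of the fibrillar type III collagen (chr2:188974320-189012746, hg38), had 14.4, 51.7 and 63.5 CPM in TNRC6AB-/- cells, against 0.114, 0.0696 and 0.0338 in TNRC6B-/- cells (log2 difference 9.05, SE 0.628, edgeR adjusted p = 2.12e-06). These were 461, 1836 and 2003 reads in TNRC6AB-/- libraries against 5, 2 and 1 reads in TNRC6B-/- libraries, at a ratio of 558 per read sequenced, with a 95% exact interval of 283 to 1294 that covers counting error only. GRIK2, a kainate-type glutamate receptor subunit, had 42.9, 75.4 and 55.9 CPM in TNRC6AB-/- cells, against 1.37, 1.18 and 1.72 in TNRC6B-/- cells (log2 difference 5.35, SE 0.245, edgeR adjusted p = 3.84e-08). HAS2, which makes the hyaluronan of the matrix, had 24.6, 48.4 and 25.97 CPM in TNRC6AB-/- cells, against 1.39, 0.487 and 0.541 in TNRC6B-/- cells (log2 difference 5.28, SE 0.426, edgeR adjusted p = 7.94e-06). The genes furthest higher and furthest lower were picked among genes past both limits whose groups did not overlap. That the groups lay apart in them was thus fixed by the choice. CPA4, a carboxypeptidase, had 129, 142 and 125 CPM in TNRC6AB-/- cells, against 4.93, 3.65 and 3.85 in TNRC6B-/- cells (log2 difference 4.98, SE 0.259, edgeR adjusted p = 1.13e-07). MAMDC2 had 37.5, 37.6 and 34.5 CPM in TNRC6AB-/- cells, against 3.54, 2.99 and 2.87 in TNRC6B-/- cells (log2 difference 3.54, SE 0.271, edgeR adjusted p = 4.61e-06). SLC2A3, the GLUT3 glucose transporter, had 57.1, 73.5 and 139 CPM in TNRC6AB-/- cells, against 4.16, 5.32 and 10.04 in TNRC6B-/- cells (log2 difference 3.80, SE 0.460, edgeR adjusted p = 0.000136). Of CPA4, MAMDC2 and SLC2A3, the spread within TNRC6AB-/- cells was widest for SLC2A3. NRP1, a co-receptor for semaphorins and VEGF, had 61.4, 58.6 and 36.8 CPM in TNRC6AB-/- cells, against 3.70, 4.03 and 9.20 in TNRC6B-/- cells. EPHA4, an ephrin receptor, had 102, 138 and 69.1 CPM in TNRC6AB-/- cells, against 9.91, 9.95 and 10.7 in TNRC6B-/- cells. Their log2 differences were 3.22 and 3.34. SLC30A10, a manganese exporter, was higher by a log2 of 3.66, and TARID, a long RNA antisense to TCF21, by 3.58, although without a stated use of strand in the counting reads of overlapping genes cannot be told apart.

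Several of the genes furthest lower were close to absent from TNRC6AB-/- cells. LINC00698, a long non-coding RNA (chr3:62950430-63125062, hg38), had 1, 0 and 0 reads in TNRC6AB-/- libraries against 1734, 1085 and 1214 reads in TNRC6B-/- libraries, a pooled ratio of 0.000258 with a 95% exact interval of 6.52e-06 to 0.00144. NRIP1, a corepressor of nuclear receptors, had 0.654, 0.366 and 0.254 CPM in TNRC6AB-/- cells, against 23.9, 27.4 and 22.8 in TNRC6B-/- cells (log2 difference −5.85, SE 0.272, edgeR adjusted p = 3.84e-08). Its highest TNRC6AB-/- library lay more than a factor of 10 under its lowest TNRC6B-/- library. CPVL, a carboxypeptidase, had 0.156, 0.0282 and 0.0634 CPM in TNRC6AB-/- cells, against 7.68, 7.51 and 7.61 in TNRC6B-/- cells, and lay on a stretch of chromosome 7 that was lower as a whole. CA9, a carbonic anhydrase induced in hypoxia, had 1, 1 and 5 reads in TNRC6AB-/- libraries and 55, 48 and 114 reads in TNRC6B-/- libraries. PROM1, which codes for the stem cell surface protein CD133, had 1.28, 2.53 and 5.23 CPM in TNRC6AB-/- cells, against 21.3, 31.9 and 36.5 in TNRC6B-/- cells (log2 difference −3.31, SE 0.389, edgeR adjusted p = 0.000113). LURAP1L (edgeR adjusted p = 0.0558 without TNRC6AB-/- library 2), ARRDC4 and VGF had log2 differences of −4.92, −4.41 and −3.36, and the epithelial genes S100A14 and CSTA of −3.25 and −2.90.

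Interferon-stimulated genes rose as a group in TNRC6AB-/- cells. These genes are switched on through JAK kinases and a transcription factor complex that holds IRF9 after an interferon binds its receptor, and include sensors and blockers of viral RNA. Of 55 tested, 47 rose and 0 fell, with a median log2 difference of 1.495 and a range from −0.064 to 4.46, and 42 had groups that did not overlap, beside 25.7% of all tested genes. The counts without any 1 of the 6 libraries were 36 to 48 higher, and 49 where library 1 of both groups was left out. IFIT1, which binds RNA without a self cap, had 27.1, 86.4 and 140.02 CPM in TNRC6AB-/- cells, against 7.29, 5.84 and 3.82 in TNRC6B-/- cells (log2 difference 3.89, SE 0.573, edgeR adjusted p = 0.000572). IFI6 had 32.8, 181 and 205 CPM in TNRC6AB-/- cells, against 7.88, 9.53 and 8.69 in TNRC6B-/- cells (log2 difference 4.005, SE 0.522, edgeR adjusted p = 0.000221). IFI44 had 2.09, 8.11 and 8.72 CPM in TNRC6AB-/- cells, against 0.297, 0.209 and 0.338 in TNRC6B-/- cells (log2 difference 4.46, SE 0.517, edgeR adjusted p = 0.000102). Library 1 of TNRC6AB-/- cells was the lowest of its group in each of these genes and still lay above all TNRC6B-/- libraries. IFIT3 had 6.14, 16.7 and 20.4 CPM in TNRC6AB-/- cells, against 1.44, 1.32 and 1.52 in TNRC6B-/- cells (log2 difference 3.33, SE 0.364, edgeR adjusted p = 6.74e-05). IFI27 had 4.46, 27.3 and 39.7 CPM in TNRC6AB-/- cells, against 1.80, 0.974 and 1.25 in TNRC6B-/- cells (log2 difference 4.12, SE 0.591, edgeR adjusted p = 0.000461). ISG15, a ubiquitin-like modifier, had 25.2, 77.8 and 123 CPM in TNRC6AB-/- cells, against 14.9, 15.2 and 16.6 in TNRC6B-/- cells (log2 difference 2.28, SE 0.386, edgeR adjusted p = 0.00165). In these as well library 1 was the lowest of TNRC6AB-/- cells, while the TNRC6B-/- libraries lay close together. IRF7 and IRF9, transcription factors of the response, rose with their targets. IRF7, which drives later interferon genes, had 7.98, 15.6 and 20.8 CPM in TNRC6AB-/- cells, against 2.90, 2.96 and 2.91 in TNRC6B-/- cells. IRF9, a DNA-binding subunit of the complex, had 23.3, 45.9 and 47.9 CPM in TNRC6AB-/- cells, against 7.996, 10.3 and 12.6 in TNRC6B-/- cells. Their log2 differences were 2.34 and 1.92.

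Sensors of double-stranded RNA were among the members that rose. DDX58, which codes for RIG-I, had 38.02, 82.1 and 95.05 CPM in TNRC6AB-/- cells, against 19.2, 19.1 and 21.00 in TNRC6B-/- cells (log2 difference 1.86, SE 0.257, edgeR adjusted p = 0.000363). IFIH1, which codes for MDA5, had 13.2, 40.6 and 44.7 CPM in TNRC6AB-/- cells, against 5.53, 9.91 and 8.18 in TNRC6B-/- cells (log2 difference 2.07, SE 0.364, edgeR adjusted p = 0.00216). The 8 members that did not pass were OAS2, LAMP3, TRIM25, XAF1, MX2, ISG20, IFI44L and RSAD2. A list of 21 interferon genes, receptors and nucleic acid sensors was added after values were seen. In it 3 rose (14.3%) and 0 fell, beside 6.83% and 5.77% of all tested genes. The number that rose was 1 without TNRC6B-/- library 2 and 5 without TNRC6AB-/- library 1. IFNE, an epithelial type I interferon, rose, with 4.43, 4.82 and 3.11 CPM in TNRC6AB-/- cells, against 1.94, 0.835 and 0.778 in TNRC6B-/- cells (log2 difference 1.76, SE 0.361, edgeR adjusted p = 0.00552). TLR3, the endosomal receptor for double-stranded RNA, rose by a log2 of 1.25, a call lost without TNRC6AB-/- library 2 or 3 or TNRC6B-/- library 2 or 3, where the edgeR adjusted p reached 0.118. The receptors and adaptors did not pass the test, with log2 differences of 0.035 for IFNAR1, 0.023 for IFNGR1, −0.021 for JAK1, 0.059 for MAVS, 0.19 for TBK1 and 0.21 for IRF3 and adjusted p-values of 0.274 or above.

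Of 20 antigen presentation genes tested, 13 rose and 0 fell, with a median log2 difference of 0.80. This count rested on single libraries, being 4 without TNRC6AB-/- library 2, 6 without TNRC6AB-/- library 3, 8 without TNRC6B-/- library 1 and 6 without TNRC6B-/- library 2. TAPBP, the tapasin that holds class I molecules at the peptide transporter, had 149, 195 and 183 CPM in TNRC6AB-/- cells, against 83.8, 75.99 and 70.4 in TNRC6B-/- cells (log2 difference 1.196, SE 0.150, edgeR adjusted p = 0.00017). PSMB9, a subunit of the immunoproteasome, had 4.92, 14.3 and 15.03 CPM in TNRC6AB-/- cells, against 3.95, 3.83 and 3.45 in TNRC6B-/- cells, with a log2 difference of 1.61 (edgeR adjusted p = 0.00851, and 0.0505 without TNRC6AB-/- library 2). B2M, the shared light chain of class I molecules, had 293, 513 and 492 CPM in TNRC6AB-/- cells, against 192, 273 and 285 in TNRC6B-/- cells (log2 difference 0.79, SE 0.211, edgeR adjusted p = 0.0246). HLA-B had 72.2, 176 and 157 CPM in TNRC6AB-/- cells, against 46.5, 70.8 and 83.7 in TNRC6B-/- cells (log2 difference 1.01, SE 0.273, edgeR adjusted p = 0.026), with TNRC6AB-/- library 1 inside the range of TNRC6B-/- libraries. The calls of B2M and HLA-B were lost without TNRC6AB-/- library 2 or 3 or TNRC6B-/- library 1 or 2 (edgeR adjusted p up to 0.128 and 0.145). Class I genes resemble one another closely, and how their reads were divided among them is uncertain.

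**Figure D2:**
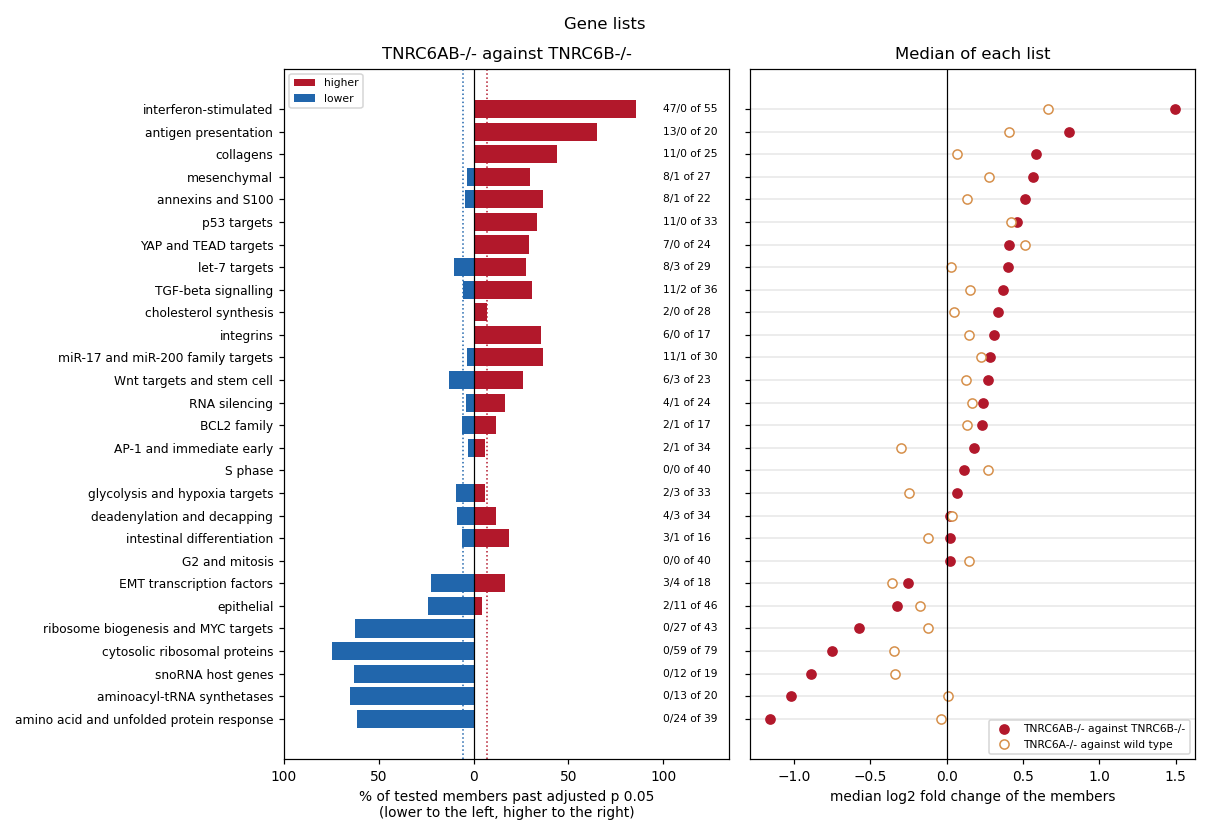
Left, percentage of each gene list's tested members that rose or fell in TNRC6AB-/- against TNRC6B-/- cells, with dotted lines at the share of all tested genes, 6.83% higher and 5.77% lower; right, median log2 fold change of each list for TNRC6AB-/- against TNRC6B-/- (filled) and for TNRC6A-/- against wild type (open). Interferon-stimulated genes stood at 85.5% higher and cytosolic ribosomal proteins at 74.7% lower.

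Genes of the amino acid response fell in TNRC6AB-/- cells. The transcription factor ATF4 drives these genes when amino acids run short or the endoplasmic reticulum is stressed, and they supply amino acid transport, serine and asparagine synthesis and tRNA charging. Of 39 tested genes of the amino acid and unfolded protein response, 24 fell and 0 rose, with a median log2 difference of −1.16. The number that fell was 15 without TNRC6AB-/- library 1, 14 without TNRC6AB-/- library 2 and 14 without TNRC6B-/- library 3. ASNS, asparagine synthetase, had 18.7, 30.7 and 28.6 CPM in TNRC6AB-/- cells, against 164, 433 and 477 in TNRC6B-/- cells (log2 difference −3.79, SE 0.551, edgeR adjusted p = 0.000527). TRIB3, a pseudokinase that feeds back on ATF4, had 7.32, 9.01 and 11.3 CPM in TNRC6AB-/- cells, against 38.1, 142 and 169 in TNRC6B-/- cells (log2 difference −3.66, SE 0.643, edgeR adjusted p = 0.00214). CHAC1, an enzyme that degrades glutathione, had 1.09, 1.69 and 2.12 CPM in TNRC6AB-/- cells, against 8.36, 34.05 and 50.4 in TNRC6B-/- cells (log2 difference −4.24, SE 0.922, edgeR adjusted p = 0.00818). In each of these genes TNRC6B-/- library 1 was the lowest of its group and lay above every TNRC6AB-/- library. TNRC6B-/- library 1 was also the one with the highest share of retained-intron reads, and where library 1 of both groups was left out 25 genes of the list fell.

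Transporters and synthesis enzymes were among the 24 members that fell. SLC7A11, the cystine transporter, had 47.8, 51.2 and 39.96 CPM in TNRC6AB-/- cells, against 213, 491 and 531 in TNRC6B-/- cells (log2 difference −3.15, SE 0.551, edgeR adjusted p = 0.00207). SLC7A5, the transporter of large neutral amino acids, had 69.8, 83.5 and 115 CPM in TNRC6AB-/- cells, against 338, 718 and 884 in TNRC6B-/- cells (log2 difference −2.85, SE 0.441, edgeR adjusted p = 0.000848). SLC7A1, which carries cationic amino acids, fell by 1.97 on the log2 scale. PSAT1, an enzyme of serine synthesis, had 50.95, 64.9 and 63.5 CPM in TNRC6AB-/- cells, against 185, 419.6 and 477 in TNRC6B-/- cells (log2 difference −2.59, SE 0.456, edgeR adjusted p = 0.00214). PHGDH, of the same pathway, fell by 1.54 on the log2 scale. In these genes TNRC6B-/- library 1 again lay between the TNRC6AB-/- libraries and the other TNRC6B-/- libraries. MTHFD2, of mitochondrial one-carbon metabolism, had 139.5, 154 and 187 CPM in TNRC6AB-/- cells, against 348, 625 and 709.9 in TNRC6B-/- cells (log2 difference −1.81, SE 0.291, edgeR adjusted p = 0.00113). STC2, a secreted glycoprotein, had 9.85, 12.1 and 16.7 CPM in TNRC6AB-/- cells, against 34.1, 162 and 226 in TNRC6B-/- cells, with a log2 difference of −3.45. ATF4 had 191, 246 and 233 CPM in TNRC6AB-/- cells, against 313, 598 and 585 in TNRC6B-/- cells (log2 difference −1.16, SE 0.276, edgeR adjusted p = 0.0136). DDIT3, which codes for the transcription factor CHOP, had 7.67, 6.56 and 8.18 CPM in TNRC6AB-/- cells, against 11.9, 53.8 and 90.3 in TNRC6B-/- cells (log2 difference −2.80, SE 0.626, edgeR adjusted p = 0.00964). The call of ATF4 was lost without TNRC6AB-/- library 1 or TNRC6B-/- library 2 or 3 (edgeR adjusted p up to 0.0682), and that of DDIT3 without TNRC6AB-/- library 2 (edgeR adjusted p = 0.0553). Among the 15 that did not pass were HSPA5, a chaperone of the endoplasmic reticulum, XBP1 and DNAJB9, with log2 differences of −0.093, −0.64 and 0.078. SESN2, a sensor of leucine, had a log2 difference of −1.71 that missed it (edgeR adjusted p = 0.0764).

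Aminoacyl-tRNA synthetases, which load tRNAs, fell in 13 of 20 members with a median log2 difference of −1.02. GARS, the synthetase for glycine, had 45.8, 49.7 and 56.2 CPM in TNRC6AB-/- cells, against 217, 360.3 and 404 in TNRC6B-/- cells (log2 difference −2.69, SE 0.317, edgeR adjusted p = 0.000113). It lies in the chromosome 7 stretch described below. EPRS had 132, 148 and 163 CPM in TNRC6AB-/- cells, against 266, 341 and 359 in TNRC6B-/- cells (log2 difference −1.12, SE 0.158, edgeR adjusted p = 0.000402). YARS, FARSB, IARS and LARS fell too, with log2 differences of −1.63, −1.22, −1.17 and −1.04. The members that did not pass included DARS, KARS, QARS, RARS, FARSA, HARS and WARS, the last with a log2 difference of −1.50.

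**Figure D3:**
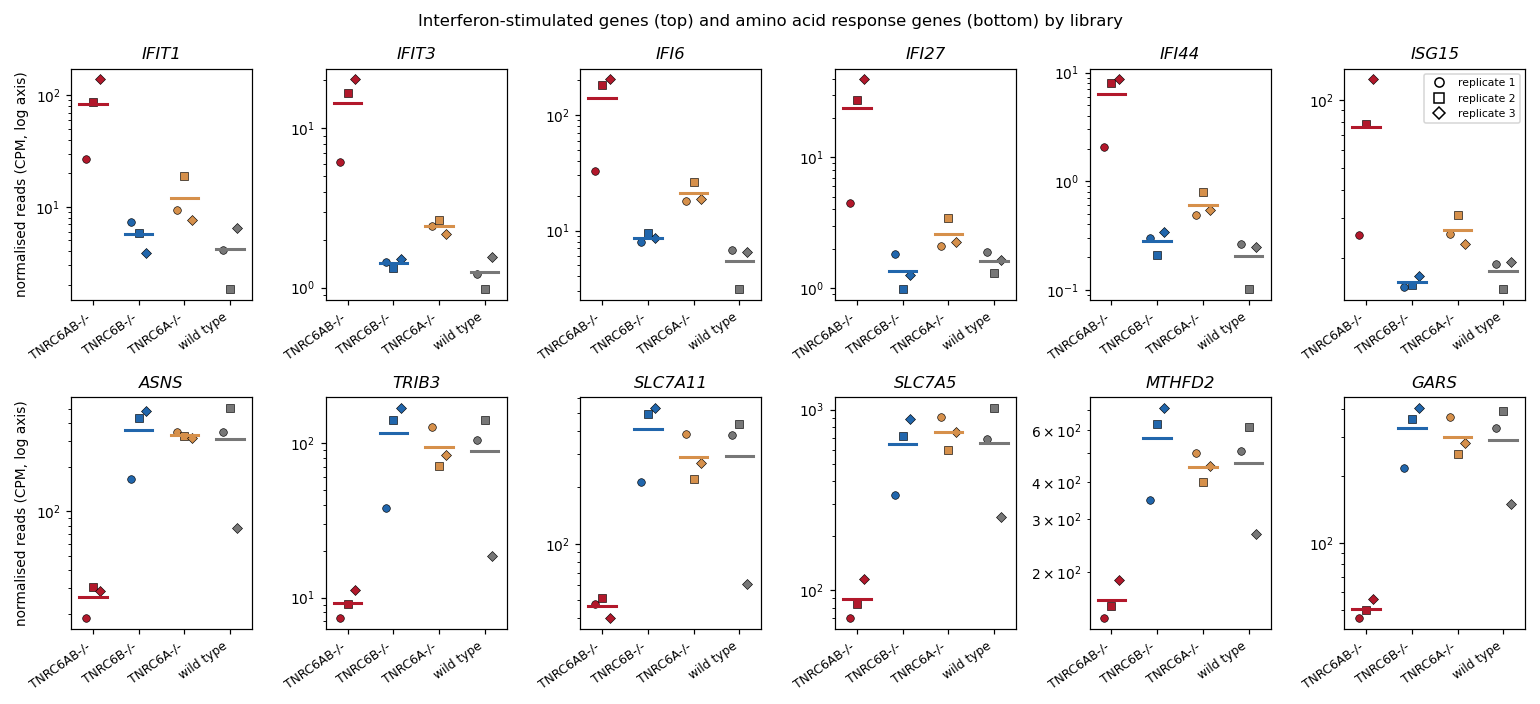
Level in CPM on a log axis of 6 interferon-stimulated genes (upper row) and 6 genes of the amino acid response and tRNA charging (lower row) in each untransfected library, by genotype with TNRC6AB-/- at the left. Symbols mark libraries 1, 2 and 3 and bars mark means; TNRC6AB-/- library 1 was the lowest of its group in the interferon genes shown, and in the lower row TNRC6B-/- library 1 was the lowest of its group and wild type library 3 the lowest of wild type.

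Genes of the ribosome fell by smaller steps. Among the 79 genes for cytosolic ribosomal proteins 59 fell and 0 rose, with a median log2 difference of −0.75, and 78 of the 79 had a negative value. The summed level of the 79 was 27496, 33261 and 43699 CPM in TNRC6AB-/- cells, against 40619, 66778 and 66992 CPM in TNRC6B-/- cells. TNRC6AB-/- library 3 lay above TNRC6B-/- library 1, and where library 1 of both groups was left out 73 genes fell. Groups without overlap were found for 23 of the 79 genes, beside 25.7% of all tested genes. The count that fell was 15 without TNRC6AB-/- library 1, 7 without TNRC6AB-/- library 2, 6 without TNRC6B-/- library 2, 13 without TNRC6B-/- library 3 and 18 in a fit of the 6 libraries alone. RPS2 had 674, 747 and 1056 CPM in TNRC6AB-/- cells, against 1345, 1975 and 1839 in TNRC6B-/- cells (log2 difference −1.06, SE 0.197, edgeR adjusted p = 0.00311). RPL5, which also binds MDM2 when it is free of the ribosome, had 390.4, 439.5 and 566 CPM in TNRC6AB-/- cells, against 610.4, 1016 and 1028 in TNRC6B-/- cells (log2 difference −0.93, SE 0.202, edgeR adjusted p = 0.00818). Ribosomal protein genes have many processed pseudogenes, and the division of reads between them is uncertain. Among 16 translation factors made from messages of the same TOP class, a list added after values were seen, 7 fell and 0 rose (2 fell without TNRC6AB-/- library 1 or 2 or TNRC6B-/- library 2 or 3, 4 without TNRC6A-/- library 2 and 13 without TNRC6B-/- library 1), EEF1B2 with a log2 difference of −1.11 and EEF2 with −0.65. The call of EEF2 was lost on leaving out any of 8 of the 12 libraries (edgeR adjusted p up to 0.188).

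MYC, the transcription factor that drives ribosome production, fell, with 41.6, 50.7 and 81.2 CPM in TNRC6AB-/- cells, against 143, 296 and 284 in TNRC6B-/- cells (log2 difference −2.06, SE 0.282, edgeR adjusted p = 0.000347). The TNRC6B-/- library with the lowest level held more than the TNRC6AB-/- library with the highest. Of 43 genes of ribosome biogenesis and MYC targets, 27 fell and 0 rose, with a median log2 difference of −0.58. That number was 17 without TNRC6AB-/- library 1, 12 without TNRC6AB-/- library 2, 11 without TNRC6B-/- library 2 and 12 without TNRC6B-/- library 3. FBL, the methyltransferase of ribosomal RNA, had 59.4, 64.02 and 83.98 CPM in TNRC6AB-/- cells, against 143, 159 and 149.5 in TNRC6B-/- cells (log2 difference −1.12, SE 0.174, edgeR adjusted p = 0.000875). WDR3, DDX21 and GNL3, also nucleolar proteins, had log2 differences of −1.09, −0.999 and −0.98. Host genes of small nucleolar RNAs fell in 12 of 19 members with none higher. SNHG1 had 87.9, 93.1 and 90.7 CPM in TNRC6AB-/- cells, against 149, 247 and 247 in TNRC6B-/- cells (log2 difference −1.24, SE 0.184, edgeR adjusted p = 0.000612). SNHG16 and GAS5 had log2 differences of −1.16 and −1.01, that of GAS5 passing without TNRC6B-/- library 1 and on leaving out no other of the 6 libraries (edgeR adjusted p up to 0.148). A list of 12 genes of the MYC network was added after values were seen. MYC itself was the 1 that fell (8.33%) and 1 rose (8.33%), near the 5.77% and 6.83% of all tested genes. Without TNRC6B-/- library 1 or wild type library 2, 3 fell.

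Some genes of epithelial junctions fell in TNRC6AB-/- cells, and some mesenchymal and matrix genes rose. Of 46 epithelial genes, 11 fell, 2 rose and 33 did not pass, with a median log2 difference of −0.33. The median was −0.15 without TNRC6AB-/- library 1 and −0.21 without TNRC6B-/- library 3, and it was −0.54 without TNRC6AB-/- library 3 and −0.55 without TNRC6B-/- library 1. The summed level of the list overlapped between the groups, at 4075 to 5626 CPM in TNRC6AB-/- cells and 3736 to 5806 CPM in TNRC6B-/- cells. The number that fell was 2 without TNRC6AB-/- library 1, 3 without TNRC6AB-/- library 2, 2 without TNRC6B-/- library 2 or 3, 17 without TNRC6B-/- library 1 and 4 in a fit of the 6 libraries alone. MAL2, which sorts cargo to the apical membrane, had 0.935, 6.42 and 14.97 CPM in TNRC6AB-/- cells, against 71.8, 148 and 159.9 in TNRC6B-/- cells (log2 difference −4.09, SE 0.658, edgeR adjusted p = 0.00113). CDH1, the E-cadherin of adherens junctions, had 10.7, 23.6 and 42.6 CPM in TNRC6AB-/- cells, against 44.3, 90.6 and 106 in TNRC6B-/- cells (log2 difference −1.64, SE 0.425, edgeR adjusted p = 0.0211). EPCAM, a surface adhesion protein, had 52.8, 83.6 and 119 CPM in TNRC6AB-/- cells, against 120.3, 189.6 and 199 in TNRC6B-/- cells (log2 difference −0.99, SE 0.252, edgeR adjusted p = 0.0191). The lowest TNRC6B-/- library lay just above the highest TNRC6AB-/- library for CDH1 and EPCAM, and the calls of both were lost without TNRC6AB-/- library 1 or 2 or TNRC6B-/- library 2 or 3, with edgeR adjusted p-values of up to 0.0947 and 0.0822. Keratins went the other way or did not pass. KRT8 had 972, 992 and 1129 CPM in TNRC6AB-/- cells, against 444, 663 and 739.5 in TNRC6B-/- cells (log2 difference 0.74, SE 0.175, edgeR adjusted p = 0.0126), a rise that missed the threshold in a fit of the 6 libraries alone (edgeR adjusted p = 0.0517). KRT18 and KRT19 had log2 differences of 0.56 and 0.18 and did not pass. Of the 8 markers of colon epithelium 6 were tested, 1 of which (KRT8) rose while 3 (CDH1, EPCAM and CLDN7) fell, the last 3 being lost without TNRC6AB-/- library 1 or 2 or TNRC6B-/- library 2 or 3. These markers were all well above 0 in both groups. Of 12 markers of other cell types 6 were tested, and their summed level was 57.1 to 99.8 CPM in TNRC6AB-/- cells against 20.1 to 31.96 CPM in TNRC6B-/- cells. COL3A1 was the member that differed most, and COL1A1 the other that rose, a call lost without TNRC6AB-/- library 1 or 2, TNRC6B-/- library 2 or 3 or wild type library 1 (edgeR adjusted p up to 0.133). The blood and vessel markers PTPRC, PECAM1 and VWF did not pass the test.

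Of 18 regulators of the epithelial to mesenchymal transition, 3 rose (16.7%) and 4 fell (22.2%), beside 6.83% and 5.77% of all tested genes. The number that rose was 1 without TNRC6AB-/- library 2, TNRC6B-/- library 2 or 3 or wild type library 1, and in the fit of the 6 libraries alone. The number that fell was 2 without TNRC6AB-/- library 2 or TNRC6B-/- library 2 or 3. Those that fell maintain epithelial cells, namely the transcription factors OVOL1, GRHL2 and GRHL1, with log2 differences of −2.07, −1.85 and −0.67, and ESRP1, a splicing regulator of epithelial isoforms, with −1.88. GRHL3, of the same family as GRHL2, rose by 3.54 on the log2 scale, a call that held without TNRC6AB-/- library 1 or wild type library 2 or 3 and was lost without any other library (edgeR adjusted p up to 0.271). ZEB1, which represses CDH1, rose, with 47.2, 48.4 and 30.6 CPM in TNRC6AB-/- cells, against 22.1, 17.3 and 17.7 in TNRC6B-/- cells (log2 difference 1.14, SE 0.182, edgeR adjusted p = 0.00105). ZEB2 rose by 0.99 on the log2 scale (edgeR adjusted p = 0.0297). Leaving out TNRC6AB-/- library 2, or TNRC6B-/- library 2 or 3, ended the calls of GRHL2 (edgeR adjusted p up to 0.108), GRHL1 (up to 0.115) and ZEB2 (up to 0.116). Leaving out TNRC6AB-/- library 1 did so for GRHL1 and ZEB2, and leaving out wild type library 1 for ZEB2. Among 27 genes of mesenchymal cells 8 rose and 1 fell, with a median log2 difference of 0.56 that was 0.26 without TNRC6AB-/- library 1. VIM, the intermediate filament vimentin, had 46.03, 37.1 and 38.1 CPM in TNRC6AB-/- cells, against 18.3, 13.5 and 12.7 in TNRC6B-/- cells (log2 difference 1.44, SE 0.218, edgeR adjusted p = 0.000707). FN1, the matrix protein fibronectin, had 65.5, 74.5 and 67.3 CPM in TNRC6AB-/- cells, against 19.97, 26.2 and 28.7 in TNRC6B-/- cells (log2 difference 1.47, SE 0.183, edgeR adjusted p = 0.000164). The gene that fell was IGFBP3, a binding protein of insulin-like growth factors, at a log2 difference of −3.46.

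Of 25 collagen genes, 11 rose and 0 fell, with a median log2 difference of 0.59. Beside COL3A1, COL12A1 had 459, 548 and 377 CPM in TNRC6AB-/- cells, against 121, 82.5 and 70.9 in TNRC6B-/- cells (log2 difference 2.33, SE 0.217, edgeR adjusted p = 2.22e-05). COL4A5, a chain of basement membrane collagen, had 72.8, 76.3 and 72.2 CPM in TNRC6AB-/- cells, against 36.5, 32.00 and 30.4 in TNRC6B-/- cells (log2 difference 1.16, SE 0.118, edgeR adjusted p = 3.87e-05). The groups of both did not overlap. Integrins, the receptors for the matrix, rose in 6 of 17 members (35.3%) and fell in 0, beside 6.83% and 5.77% of all tested genes. ITGA9, ITGB8 and ITGB5 were higher by log2 values of 1.85, 1.64 and 1.61. The number that rose was 3 without TNRC6AB-/- library 2 or 3, or TNRC6B-/- library 2 or 3, and in a fit of the 6 libraries. Of 22 annexin and S100 genes 8 rose and 1 fell (5 rose without TNRC6AB-/- library 2). ANXA2, which binds membrane phospholipids with S100A10, had 1577, 1714 and 1937 CPM in TNRC6AB-/- cells, against 1076, 1083 and 1038 in TNRC6B-/- cells (log2 difference 0.71, SE 0.141, edgeR adjusted p = 0.00455).

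Genes of TGF-beta signalling rose in 11 of 36 members (30.6%) and fell in 2 (5.56%), beside 6.83% and 5.77% of all tested genes. The number that rose was 7 without TNRC6AB-/- library 2. TGFB2, a ligand of the pathway, had 8.48, 18.9 and 25.6 CPM in TNRC6AB-/- cells, against 0.891, 1.01 and 1.32 in TNRC6B-/- cells (log2 difference 4.05, SE 0.378, edgeR adjusted p = 2.22e-05). SMAD7, the inhibitory SMAD that the pathway induces against itself, had 6.30, 7.91 and 12.7 CPM in TNRC6AB-/- cells, against 0.663, 1.36 and 1.45 in TNRC6B-/- cells (log2 difference 2.98, SE 0.330, edgeR adjusted p = 6.99e-05). PMEPA1 and SMAD6, also feedback inhibitors, were higher by log2 values of 2.68 and 1.68, and ID2, a target of the BMP arm, fell by 1.93. Of the 36 genes of TGF-beta signalling, 23 did not pass. Groups without overlap were found for 20 of the 36, beside 25.7% of all tested genes. Of 24 targets of YAP and TEAD, the transcription factors at the end of the Hippo pathway, 7 rose and 0 fell. ANKRD1 had 4.05, 7.58 and 15.5 CPM in TNRC6AB-/- cells, against 0.274, 0.696 and 0.473 in TNRC6B-/- cells (log2 difference 4.27, SE 0.472, edgeR adjusted p = 6.99e-05). PTPN14, a phosphatase that retains YAP in the cytoplasm, had 537, 723 and 534 CPM in TNRC6AB-/- cells, against 229, 232 and 218 in TNRC6B-/- cells (log2 difference 1.40, SE 0.134, edgeR adjusted p = 2.54e-05). Of 23 Wnt target and stem cell genes 6 rose and 3 fell, and 3 rose without TNRC6AB-/- library 2 or TNRC6B-/- library 2. DKK1, a secreted Wnt inhibitor, had 186, 261 and 224 CPM in TNRC6AB-/- cells, against 44.3, 56.9 and 37.8 in TNRC6B-/- cells (log2 difference 2.27, SE 0.350, edgeR adjusted p = 0.000825). AXIN2, a feedback inhibitor inside the cell, was higher by 1.84.

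Targets of p53 rose in 11 of 33 members (33.3%) and fell in 0, beside 6.83% and 5.77% of all tested genes. Their median log2 difference was 0.46. CDKN1A, the cyclin kinase inhibitor p21, had 284, 429 and 418 CPM in TNRC6AB-/- cells, against 126, 136 and 190.1 in TNRC6B-/- cells (log2 difference 1.33, SE 0.231, edgeR adjusted p = 0.002). PLK2 had 578, 589 and 452 CPM in TNRC6AB-/- cells, against 108, 101 and 86.97 in TNRC6B-/- cells (log2 difference 2.45, SE 0.170, edgeR adjusted p = 2.12e-06). MDM2, the ubiquitin ligase of p53, had 451, 443 and 420.1 CPM in TNRC6AB-/- cells, against 307, 261 and 289 in TNRC6B-/- cells (log2 difference 0.62, SE 0.131, edgeR adjusted p = 0.00719), a call lost without TNRC6B-/- library 2 (edgeR adjusted p = 0.0521). Neither list of the cell cycle had a member past the test, in 40 genes of S phase and 40 of G2 and mitosis by edgeR. At an unadjusted p under 0.05 there were 4 S phase genes and 2 of G2 and mitosis, all higher. Without wild type library 2, which enters the shared estimate of spread, 7 S phase genes rose and 1 fell, and in the fit of the 6 libraries alone 5 rose. DESeq2 gave 0 and 0, and limma-voom 12 higher and 1 lower in S phase and 8 higher and 1 lower in G2 and mitosis. CCND1, the cyclin D1 of G1, was outside those lists and had 1276, 1889 and 1461 CPM in TNRC6AB-/- cells, against 525, 861 and 876 in TNRC6B-/- cells (log2 difference 1.03, SE 0.197, edgeR adjusted p = 0.00359). In the BCL2 family of 17 genes, BCL2L11, which codes for the death-inducing BIM, had 74.02, 70.97 and 69.5 CPM in TNRC6AB-/- cells, against 23.4, 25.1 and 30.9 in TNRC6B-/- cells (log2 difference 1.43, SE 0.133, edgeR adjusted p = 2.22e-05). The related BMF rose by 1.54 and HRK fell by 1.67. The call of BMF was lost without TNRC6AB-/- library 3 or TNRC6B-/- library 2 or 3 (edgeR adjusted p up to 0.0848), and that of HRK without TNRC6AB-/- library 2 or TNRC6B-/- library 3 (up to 0.0682). Cholesterol synthesis had 2 of 28 genes higher and 0 lower, and glycolysis and hypoxia targets 2 higher and 3 lower of 33, shares near those of all tested genes. Of the cholesterol genes 7 rose without wild type library 2, and 4 without wild type library 3 or TNRC6AB-/- library 1. Of the glycolysis genes 5 rose without wild type library 3, and 1 fell without TNRC6AB-/- library 2.

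MicroRNA seeds were searched as the sequence features through which the scaffolds act. The mature sequences below are from RefSeq (GRCh38.p14) and are shown because let-7, miR-17 and miR-200 family targets form 2 of the gene lists, with miR-34a and miR-29a as the families whose site holders stood furthest from the rest. Capitals mark the seed, bases 2 to 8, and a site is its reverse complement on the strand of the message.
let-7a-5p: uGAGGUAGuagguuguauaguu
miR-17-5p: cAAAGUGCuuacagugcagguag
miR-200b-3p: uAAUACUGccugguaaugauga
miR-34a-5p: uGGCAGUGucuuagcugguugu
miR-29a-3p: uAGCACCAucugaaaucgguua

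Known targets of these families rose in part. Of 30 targets of the miR-17 and miR-200 families, 11 rose and 1 fell, beside 6.83% and 5.77% of all tested genes, with a median log2 difference of 0.28. The number that rose was 6 without TNRC6AB-/- library 2 and 7 without TNRC6B-/- library 2, while 7 fell without TNRC6B-/- library 1. Of 29 let-7 targets, 8 rose and 3 fell, with a median of 0.40. IGF2BP3, NR6A1 and PBX3 of this list lie in the chromosome stretches described below. Of the 26 outside them, 6 rose and 2 fell, with a median of 0.38. The number that rose was 4 without TNRC6AB-/- library 2, 5 without TNRC6B-/- library 2 and 2 where counts were scaled by transcript length. Some of these targets also stand in the lists above, ZEB1 and FN1 among them. MAP3K5, a stress kinase, had 105, 181 and 149 CPM in TNRC6AB-/- cells, against 33.2, 44.3 and 49.9 in TNRC6B-/- cells (log2 difference 1.77, SE 0.208, edgeR adjusted p = 0.000111). ARID3A, a DNA-binding protein, had 36.9, 41.7 and 52.96 CPM in TNRC6AB-/- cells, against 20.7, 17.2 and 18.9 in TNRC6B-/- cells (log2 difference 1.21, SE 0.173, edgeR adjusted p = 0.000448). HMGA1, a chromatin protein and let-7 target in the list, went against the direction of the list, with 282, 342 and 421 CPM in TNRC6AB-/- cells, against 694, 1123 and 1226 in TNRC6B-/- cells (log2 difference −1.54, SE 0.241, edgeR adjusted p = 0.000916). WASF3, of the actin regulators, was the member of the miR-17 and miR-200 list that fell, with a log2 difference of −1.40.

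The sites of these genes are printed as DNA of the 3′UTR with the match to the seed in capitals and neighbouring bases on both sides. They were chosen after the genes' values were seen, to set members that rose beside members that fell.
ARID3A, let-7a site, rose: gctgcctatctctgtCTACCTCaggtc
HMGA1, let-7a site, fell: tcctctgttcacaaaCTACCTCtggac
MAP3K5, miR-17 site, rose: gaggagaaaggcgctGCACTTTaaatc
BCL2L11, miR-17 site, rose: agtctcctgactagaGCACTTTactct
CDKN1A, miR-17 site, rose: agaagtaaacagatgGCACTTTgaagg
ZEB1, miR-200b site, rose: attgttttatcttatCAGTATTatcac
FN1, miR-200b site, rose: gtattcaataccgctCAGTATTttaaa
WASF3, miR-200b site, fell: aattctgggtcttttCAGTATTtactg

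For let-7a and miR-200b an identical 7-base site is printed for members of either direction, as the choice of genes set out to do. Each miR-17 site printed lay in a member that rose. ZEB1 held 5 miR-200b sites, WASF3 held 3, and ARID3A held 2 let-7a sites. In the transcripts searched, DICER1 and CCND1 held 0 let-7a sites and ZEB2 held 0 miR-200b sites, and each of these genes rose. The ZEB2 transcript searched had a 3′UTR of 1201 bases. Sites in other transcripts of these genes were not searched for. Over all 14324 genes with a 3′UTR of at least 30 bases, holders of a site differed little from the rest. The 1292 genes with a let-7a match had a median log2 difference of 0.072 against 0.023 in 13032 genes without one, and 7.51% against 7.27% were higher past both limits. For miR-17 the medians were 0.044 in 2940 genes with a site and 0.023 in genes without, and for miR-200b 0.029 and 0.028. The largest distances among 17 families were those of miR-29a (0.077 and 0.020, with 9.59% and 6.93% higher) and miR-34a (0.077 and 0.019, with 9.65% and 6.88% higher), and the difference of medians ran from −0.014 for miR-27a to 0.058. Families of other tissues lay inside that range, miR-122 of liver at 0.019, miR-1 of muscle at 0.035 and miR-9 of brain at 0.024. Genes with a site had longer 3′UTRs, with medians of 2626 against 848 bases for let-7a, and the medians of the log2 difference in 5 equal groups by 3′UTR length were −0.021, 0.048, 0.045, 0.041 and 0.031, short to long.

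TNRC6A loss was also measured in cells with TNRC6B, by TNRC6A-/- against wild type libraries, which share no library with the TNRC6AB-/- against TNRC6B-/- comparison. There 914 genes passed both limits, 537 higher and 377 lower, and with the adjusted p alone 634 (2.77%) rose and 413 (1.8%) fell. The 914 became 439 to 502 without any 1 TNRC6A-/- library and 596 without wild type library 1. Of 22925 tested genes, 1226 were higher past both limits in TNRC6AB-/- over TNRC6B-/- cells and 537 in TNRC6A-/- over wild type cells. Genes higher in both numbered 240, which is 19.6% of the 1226 and 44.7% of the 537. By the same limits 1098 and 377 genes were lower. Genes lower in both numbered 83, 7.56% of the 1098 and 22.0% of the 377. Another 15 genes were higher in TNRC6AB-/- and lower in TNRC6A-/- cells and 8 the reverse. Over all tested genes, 10.1% passed both limits either way in TNRC6AB-/- over TNRC6B-/- cells. Of the 2324 genes, 1028 of the 1226 higher (83.9%) and 825 of the 1098 lower (75.1%) had the same sign after TNRC6A loss in wild type cells, beside 62.6% of all tested genes. CPA4 (4.98 and 2.98), VIM (1.44 and 2.32), PTPN14 (1.40 and 1.42), TAPBP (1.196 and 1.35), MAL2 (−4.09 and −5.49) and PROM1 (−3.31 and −2.71) moved the same way in both, as log2 differences in TNRC6AB-/- over TNRC6B-/- and in TNRC6A-/- over wild type. Of 55 interferon-stimulated genes 4 rose in TNRC6A-/- cells with a median of 0.66, and of 39 genes of the amino acid response 0 rose and 0 fell by edgeR with a median of −0.036. Of these 39 genes 2 were lower at an unadjusted p under 0.05.

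The difference between these comparisons was tested as an interaction. It passed for 605 genes (2.64%), 294 with a positive and 311 with a negative difference. Among the 2324 genes it passed for 406 (17.5%), 174 of the higher and 232 of the lower ones. The interaction holds the same TNRC6AB-/- minus TNRC6B-/- difference that picked the 2324 genes, so a larger share among them is built into that choice. The 605 became 318 to 376 without any 1 TNRC6A-/- library, 325 without TNRC6AB-/- library 2, 331 without TNRC6B-/- library 2, 401 without wild type library 1 and 1116 without TNRC6B-/- library 1. ASNS fell in TNRC6AB-/- over TNRC6B-/- cells by 3.79 and had a log2 difference of 0.095 in TNRC6A-/- over wild type cells. Its levels there were 329 ± 13.8 (SD, n = 3) CPM in TNRC6A-/- cells and 308 ± 216 (SD, n = 3) CPM in wild type cells. Its interaction was −3.88 (edgeR adjusted p = 0.0105). Of the amino acid list 9 genes passed with a negative difference, and of the synthetases 4. These counts rested on single libraries, since without 1 of TNRC6A-/- library 1, 2 or 3, TNRC6AB-/- library 1, 2 or 3, TNRC6B-/- library 2 or 3 or wild type library 1 they were 2 to 4 and 1 to 3, while they were 18 and 10 without TNRC6B-/- library 1 and 12 and 9 without wild type library 2. ASNS, GARS, MYC and RUBCN passed without each of the 12 libraries. GARS had an interaction of −2.74 (edgeR adjusted p = 0.00405) and MYC one of −2.05 (edgeR adjusted p = 0.0119). Wild type library 3 was low in the amino acid genes, at 77.2 CPM of ASNS against 344 and 504 CPM in wild type libraries 1 and 2. Without that library 431 genes passed the interaction, 9 genes of the amino acid list did so, and the value of ASNS was −3.42 (edgeR adjusted p = 0.00444). Of the interferon-stimulated genes 6 passed with a positive difference, IFIT3 at 2.39 and IFI27 at 3.44 (edgeR adjusted p = 0.0369) among them, so that for the others an effect of unequal size in the 2 backgrounds was not shown. The 6 became 26 without TNRC6AB-/- library 1 and were 1 to 4 on leaving out any other library but TNRC6B-/- library 1. The interactions of IFIT3 and IFI27 were lost without any 1 TNRC6A-/- library among others (edgeR adjusted p up to 0.0712 and 0.105). The ribosomal protein list had 0 genes past the interaction by edgeR, with 12 lower at an unadjusted p under 0.05 and 7 negative without TNRC6B-/- library 1. RUBCN, a regulator of autophagy, fell in TNRC6AB-/- cells, with 29.98, 35.9 and 34.7 CPM in TNRC6AB-/- cells, against 53.2, 51.5 and 60.97 in TNRC6B-/- cells (log2 difference −0.72, SE 0.126, edgeR adjusted p = 0.00209). Its interaction was −0.94.

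**Figure D4:**
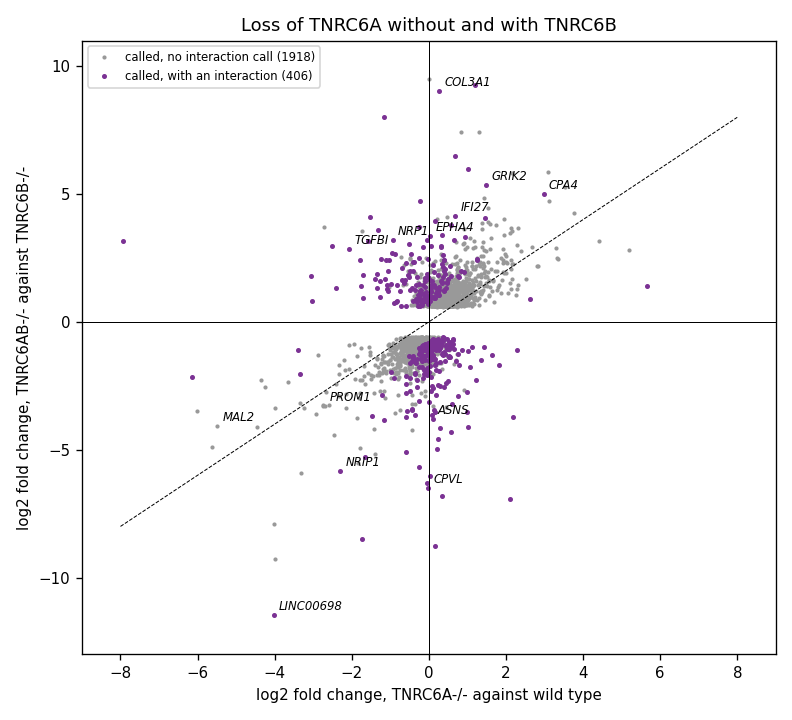
Each of the 2324 genes past both limits, with its log2 fold change in TNRC6AB-/- over TNRC6B-/- cells on the vertical axis and in TNRC6A-/- over wild type cells on the horizontal axis. Purple points are the 406 genes whose interaction passed, grey points the rest, and the dashed line marks equal values; COL3A1 and LINC00698 lie at the ends of the vertical axis.

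The siGL2 libraries gave a set of TNRC6AB-/- and wild type cells that entered neither comparison above, though they differ in TNRC6B as well. The TNRC6AB-/- cells were the same purchased line in both sets. A difference that arose in that line and a difference due to TNRC6A therefore cannot be told apart here either. Of the 2324 genes, 2113 (90.9%) had the same sign in TNRC6AB-/- over wild type cells under siGL2, 1079 of those higher (88.0%) and 1034 of those lower (94.2%), beside 66.1% of all tested genes. Of the 2324 genes 1415 (60.9%) also passed the adjusted p there with the same sign. The share of all tested genes that passed there was not counted, so the 60.9% has no background to be read against. Of the called members, 45 of 47 interferon-stimulated genes, 24 of 24 genes of the amino acid response and 59 of 59 ribosomal protein genes had the same sign. The medians over the tested members were 0.57, −0.60 and −0.75. Among the other lists, for antigen presentation it was 10 of 13 with a median of 0.026 and for Wnt target and stem cell genes 5 of 9 with a median of −0.11. Annexins and S100 genes had 6 of 9 with −0.067, cholesterol synthesis 1 of 2 with −0.40 and glycolysis and hypoxia targets 4 of 5 with −0.97. Ribosome biogenesis and MYC targets had 25 of 27 with −0.15, and host genes of small nucleolar RNAs 12 of 12 with −0.32.

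Among the genes lower in TNRC6AB-/- cells many were neighbours. A running median over 31 genes along each chromosome, which was looked at without a test, marked 3 stretches in hg38. At chr5:196871-16936276, the end of the short arm, 50 of 52 genes had a negative value, 40 passed both limits as lower and the median log2 difference was −0.93, a ratio of 0.525. At chr7:19018-33109401, also a chromosome end, 151 of 168 genes had a negative value, 111 were called lower and 4 higher, and the median was −0.89, a ratio of 0.539. At chr9:122844556-138253217, the end of the long arm, 214 of 232 genes had a positive value, 103 were called higher and 2 lower, and the median was 0.61, a ratio of 1.52. Each TNRC6AB-/- library showed all 3 against the TNRC6B-/- mean, with medians of −1.01, −0.93 and −0.83 on chromosome 5, −0.93, −0.81 and −0.84 on chromosome 7, and 0.44, 0.60 and 0.70 on chromosome 9. The same stretches had medians of −0.92, −0.95 and 0.56 in TNRC6AB-/- over wild type cells under siGL2, of −1.04, −0.79 and 0.58 in TNRC6AB-/- over TNRC6A-/- cells, and of 0.016, 0.014 and 0.094 in TNRC6A-/- over wild type cells.

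Copy number was not measured, and its part in these values was not tested. Of 452 genes inside the stretches at 1 CPM or above, 57.5% passed both limits, 107 higher and 153 lower, and of 15693 outside 11.4% did, 972 higher and 823 lower. The stretches were marked by these same log2 differences, so a larger share inside them, and the counts within each, follow from that choice. GARS, CPVL, FKBP14, ITGB8 and IGF2BP3 lie in the chromosome 7 stretch, NKD2 in that of chromosome 5, and COL5A1, NR6A1, PBX3, RPL12, RPL35, RPL7A, SNHG7 and HSPA5 in that of chromosome 9. FKBP14, a collagen-folding isomerase, had 13.6, 15.3 and 15.7 CPM in TNRC6AB-/- cells, against 23.1, 26.2 and 33.6 in TNRC6B-/- cells (log2 difference −0.90, SE 0.188, edgeR adjusted p = 0.00648), a difference close to the median of its stretch. ITGB8, in contrast, rose there by 1.64. Counted outside the stretches, 47 interferon-stimulated genes rose, 24 genes of the amino acid response fell and 58 ribosomal protein genes fell.

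**Figure D5:**
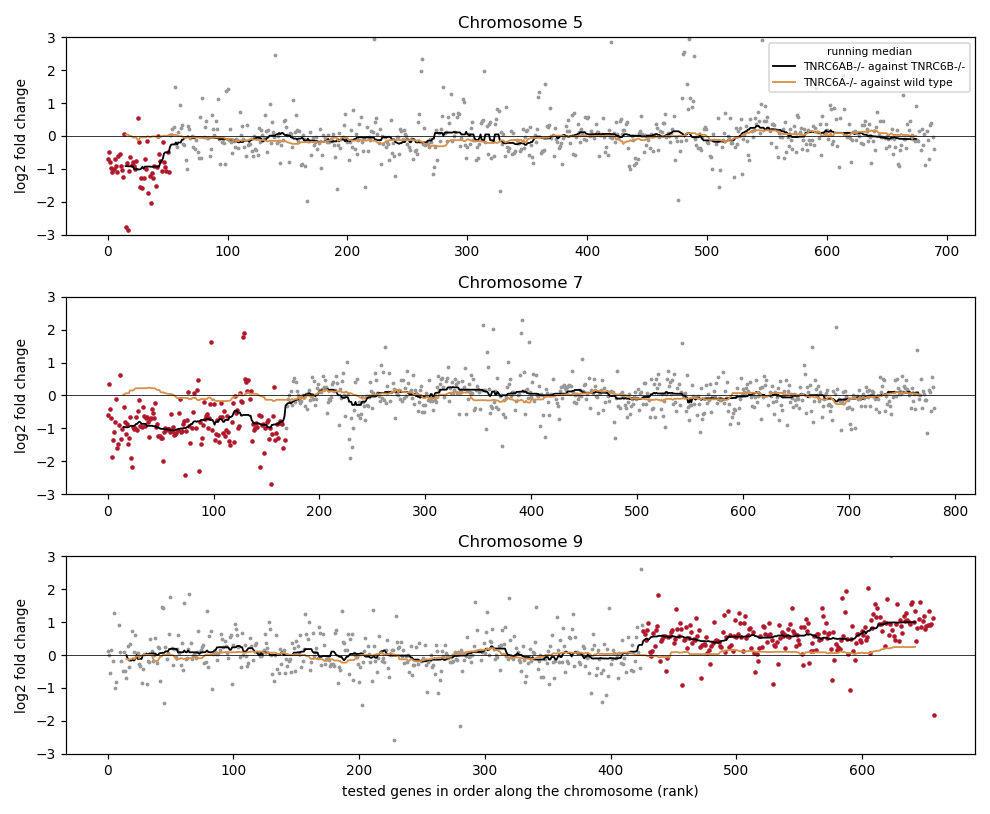
Log2 fold change of TNRC6AB-/- over TNRC6B-/- cells for genes at 1 CPM or above along chromosomes 5, 7 and 9, in gene order, with genes inside the stretches in red. The black line is the running median over 31 genes, lower at the start of chromosomes 5 and 7 and higher at the end of chromosome 9, and the orange line is the same median for TNRC6A-/- over wild type cells, which stayed near 0 there.

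Genes whose splicing the study followed one by one were read here at the gene level only. RUBCN, FKBP14, TBC1D5 and PPIP5K2 fell, TBC1D5, an endosomal sorting regulator, with a log2 difference of −0.41 and PPIP5K2, an inositol phosphate kinase, with −0.35 (edgeR adjusted p = 0.0426 and 0.0386). The call of PPIP5K2 held only without TNRC6B-/- library 1, and that of TBC1D5 only without that library or TNRC6AB-/- library 2, among the 6 left out in turn, with adjusted p-values of up to 0.162 and 0.142. KIF21A, EPB41L2, PHLDB1 and APIP had log2 differences of −0.35, 0.25, 0.13 and −0.27 and did not pass. HPRT1, a purine salvage gene often used as a qPCR reference, had 27.6, 25.8 and 30.9 CPM in TNRC6AB-/- cells, against 40.4, 38.5 and 41.9 in TNRC6B-/- cells (log2 difference −0.52, SE 0.164, edgeR adjusted p = 0.0538). FAM83F, which overlaps TNRC6B so that the division of reads between them is uncertain, had a log2 difference of −0.23 (edgeR adjusted p = 0.515).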

How the data were processed

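Untransfected HCT116 libraries of 4 genotypes, 3 each, were read from the deposited per-transcript tables. Salmon 0.11.0, run by the authors on hg38, made these tables, and the deposited values are estimated counts (expected counts) and TPM per transcript; the labels name a strand-specific whole-transcriptome kit, and how strand entered the counting is not given in the sources used here. Extraction is given as Trizol in the labels and as a column kit in the methods. Estimated counts were summed by gene over 57721 GENCODE genes and rounded, with at most 0.0544% of reads unmatched. TPM was used for levels per transcript, for a length-scaled alternative and to choose the transcript of each gene searched for seeds.

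Counts of the 12 libraries were fitted with 1 mean a group in edgeR 4.0.16 (R 4.3.3; filterByExpr, TMM, quasi-likelihood test, Benjamini-Hochberg over 22925 genes, 8 residual degrees of freedom). Calls of genes counted over the whole table needed an adjusted p below 0.05 and a log2 difference beyond 0.6; lists and named genes used the adjusted p alone. The interaction is the TNRC6AB-/- minus TNRC6B-/- difference less the TNRC6A-/- minus wild type difference. The alternatives were DESeq2 1.42.0, limma 3.58.1 (voom with sample weights), other size factors, no filter, fits of 24 or 6 libraries, a replicate block and each library left out. The script was tested on simulated data. Genes were named for being a TNRC6 paralog, a member of the RNA silencing list or singled out in the study, for the 12 largest rises and falls among called genes at 5 CPM or above without overlap, for the 6 largest interactions of either sign, for the 6 smallest adjusted p-values of a list, or for defining a list. The members and lists were chosen with earlier results of these data known. Seeds were matched in the 3′UTR of 1 transcript a gene, the protein-coding one with the highest mean TPM over the 6 compared libraries. Binomial intervals cover counting error only.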

Additional observations from a re-analysis of the deposited data

Results flagged for a closer look

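The results given here are those where loss of TNRC6A had an effect of another size, or of the other sign, in cells without TNRC6B than in cells with it. The value of each is the interaction on the log2 scale, the difference of TNRC6AB-/- and TNRC6B-/- cells less that of TNRC6A-/- and wild type cells, with an adjusted p below 0.05 by edgeR's quasi-likelihood test in a fit of 12 libraries. It was found for 605 genes, and the named ones follow by group.

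A value below 0 means lower in TNRC6AB-/- cells than the difference of TNRC6A-/- and wild type cells would give. Genes of the amino acid response below 0 were ASNS at −3.88, TRIB3 at −3.75, SLC7A11 at −3.15, SLC7A5 at −3.05, SLC7A1 at −1.98 and MTHFD2 at −1.77. Aminoacyl-tRNA synthetases with a value below 0 were GARS at −2.74, IARS at −1.17 and EPRS at −1.11. Wild type library 3 was low in ASNS and several of these genes, as was TNRC6B-/- library 1, and both enter the interaction. MYC stood at −2.05, SNHG16 at −1.22 and HMGA1 at −1.37. The transcription factor HNF4A, of intestinal and liver epithelium, was at −1.55, and NRIP1 at −3.55. The remaining values below 0 were LINC00698 at −7.44, CPVL at −6.47, CSTA at −3.65, IGFBP3 at −3.58, NKD2 at −2.19, PHLDA1 at −1.25, RUBCN at −0.941, CNOT3 at −0.914 and TNRC6B at −0.825. CPVL and GARS lie in the chromosome 7 stretch and NKD2 in the chromosome 5 stretch.

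Above 0 were matrix and TGF-beta genes: COL3A1 at 8.78, TGFBI at 4.93, PMEPA1 at 3.64, SMAD7 at 2.67, TGFB2 at 2.6 and COL4A5 at 1.09. Interferon-stimulated genes named here were IFITM1 at 3.56, IFI27 at 3.44 and IFIT3 at 2.39; the IFITM genes resemble one another closely and the division of their reads is uncertain. Surface receptors were NRP1 at 4.15, GRIK2 at 3.86, EPHA4 at 3.3 and ITGA9 at 1.9. Genes of cell death and p53 were BAX at 1.22, BCL2L11 at 1.29, PLK2 at 1.2 and MAP3K5 at 2.09. The immediate early genes EGR2 and DUSP1 stood at 2.39 and 2.05, the Wnt inhibitor DKK1 at 1.92, the glucose transporter SLC2A3 at 3.23, the carbonic anhydrase CA12 at 2.03 and the carboxypeptidase CPA4 at 2. MUC13 at 5.65 and TARID at 4.9 complete the named values, with ANXA10 at 7.58. That value came from its 303, 362 and 409 reads in wild type libraries, set against 1, 7 and 6 reads in TNRC6A-/- libraries, 2, 7 and 7 in TNRC6AB-/- libraries and 1, 3 and 2 in TNRC6B-/- libraries.

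Of the 49 named genes, 28 kept an adjusted p below 0.05 without each of the 12 libraries in turn. TGFB2 (1 library), CA12 and IFITM1 (2 each), EPRS (3) and HNF4A (4) lost it on leaving out a few. The other 16 lost it on leaving out 6 or more of the 12, and were COL3A1, CSTA, DKK1, EGR2, HMGA1, IARS, IFI27, IFIT3, IGFBP3, MTHFD2, PHLDA1, SLC7A1, SLC7A11, SNHG16, TNRC6B and TRIB3. The edgeR adjusted p reached 0.286 for COL3A1.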

How the results depend on the processing

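For genes changed in TNRC6AB-/- against TNRC6B-/- cells, limma-voom gave 5676 and leaving out 1 library gave 1340 to 3154. For TNRC6A-/- against wild type cells, a fit of all 24 libraries gave 2086, no filter 1442, limma-voom 2761, leaving out library 1 of both TNRC6AB-/- and TNRC6B-/- cells 1743, and leaving out 1 library 439 to 1349. For the interaction, the 24 libraries gave 1669, DESeq2 962, no filter 1028, limma-voom 4272, leaving out those 2 libraries 1033, and leaving out 1 library 318 to 1116. A replicate block gave 2609 genes for TNRC6AB-/- against TNRC6B-/- cells. In the fit of the 6 libraries alone the block gave 3024, against 1774 without it. Deviations from group means correlated at 0.546, 0.077 and 0.375 between same-numbered libraries of these groups. TNRC6AB-/- libraries 1 and 3 correlated best with the TNRC6B-/- library of their number, and library 2 with TNRC6B-/- library 3 (0.143). Each TNRC6A-/- library correlated best with the wild type library of its number (0.149, 0.098 and 0.0647). The sources used here do not say whether same-numbered libraries were handled together, and the main fit did not model a shift they share. The median of the AP-1 and immediate early list ran from −0.0744 (without TNRC6AB-/- library 1) to 0.2181 when 1 library was left out and was −0.0161 with library 1 of both groups left out, and that of the BCL2 family ran from −0.0042 (without TNRC6B-/- library 1) to 0.3298. Of 174 genes followed singly that passed the test, 41 lost it under at least 1 of 22 settings and 0 reversed. The cause was not tested. The settings that leave out library 1 of both groups, and a block in the 6 libraries, were chosen after seeing the data. Depth limits genes at a few reads in both groups, such as ANXA10.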

Other observations

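Of 38 genes of intestinal differentiation 16 were tested, of which 3 rose (18.8%) and 1 fell (6.25%) by edgeR in TNRC6AB-/- over TNRC6B-/- cells, beside 6.83% and 5.77% of all tested genes. HNF4A, a transcription factor of gut and liver epithelium, had 1.90, 1.30 and 2.19 CPM in TNRC6AB-/- cells, against 7.84, 7.96 and 7.78 in TNRC6B-/- cells (log2 difference −2.13, SE 0.235, edgeR adjusted p = 6.99e-05). LYZ, the lysozyme of Paneth cells, had 1.71, 2.34 and 2.63 CPM in TNRC6AB-/- cells, against 0.320, 0.278 and 0.203 in TNRC6B-/- cells (log2 difference 3.02, SE 0.357, edgeR adjusted p = 0.000116). MUC13, a transmembrane mucin, rested on 43, 50 and 63 reads in TNRC6AB-/- libraries and 5, 3 and 1 reads in TNRC6B-/- libraries. All 3 had groups apart at levels under 10 CPM.

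Among glycolysis and hypoxia targets SLC2A3 was higher and CA9, HK2 and VEGFA lower, with log2 differences of 3.80, −4.91, −1.80 and −1.93. PKM, a pyruvate kinase, was the other that rose, by 0.66, and its call was lost on leaving out any of the 6 libraries but TNRC6AB-/- library 1, any TNRC6A-/- library or wild type library 1 (edgeR adjusted p up to 0.122). HK2 overlapped between the groups and lost its call without TNRC6AB-/- library 1 or 2 or TNRC6B-/- library 2 or 3 (edgeR adjusted p up to 0.132). The call of VEGFA was lost without TNRC6AB-/- library 2 (edgeR adjusted p 0.0534).

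S100A10, the partner of ANXA2, had 222, 292 and 328 CPM in TNRC6AB-/- cells, against 105, 97.7 and 88.5 in TNRC6B-/- cells (log2 difference 1.53, SE 0.197, edgeR adjusted p = 0.000194). PHLDA1, which is induced by growth factor signalling, had 225, 304 and 243 CPM in TNRC6AB-/- cells, against 520.2, 846 and 957 in TNRC6B-/- cells (log2 difference −1.59, SE 0.222, edgeR adjusted p = 0.000383), and was the 1 of 34 AP-1 and immediate early genes that fell, beside 2 that rose (6 rose and 4 fell without TNRC6B-/- library 1). LGR6, a receptor for R-spondins that raises Wnt signalling, had 2.46, 2.48 and 2.66 CPM in TNRC6AB-/- cells, against 0.137, 0.452 and 0.812 in TNRC6B-/- cells (log2 difference 2.49, SE 0.513, edgeR adjusted p = 0.00578), a call lost where counts were scaled by transcript length (edgeR adjusted p = 0.0606).

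Of 15 genes of the mitochondrial genome 2 passed as lower, the ribosomal RNAs MT-RNR1 and MT-RNR2. MT-RNR1 had 0.530, 1.10 and 0.539 CPM in TNRC6AB-/- cells, against 11.4, 2.19 and 0.879 in TNRC6B-/- cells, and TNRC6B-/- library 1 alone stood apart. Without that library the log2 difference of MT-RNR1 was −1.07 and that of MT-RNR2 was −0.614, and neither passed.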
